A study of Homo sapiens with 8 samples.

Results

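The genes described here are 53 genes of S phase and DNA replication, taken from a fixed list of symbols. No value served as a rule of choice, but the list was made with earlier results of these data known. All 53 were found among the 58217 genes of the count table. They were followed in H9 cells, a widely used human embryonic stem cell line, that had been turned into oligodendrocyte progenitor cells (OPCs) and were then kept for 2 days on 1 of 3 coatings: Matrigel, a basement membrane extract and the control, VN, full-length vitronectin, or VNP2, a peptide derived from vitronectin and fused to a mussel adhesive protein. No group carried SOX10 overexpression. Polyadenylated RNA was sequenced in 8 libraries (2 of Matrigel, 3 of VN and 3 of VNP2), all from this 1 line. The question was whether the coating changed the expression of the replication genes.

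The libraries held 37997896 to 39429453 estimated counts. VN replicate 1 stood apart from its group: the median chi-square per gene between it and the other VN libraries was 2.25 and 2.62, against 0.707 to 1.16 between any other pair of libraries on the same coating and 0.455 from sampling alone. Nothing in the labels ties the libraries to separate cultures, so p-values measure the spread between these libraries, which may be technical. The OPC label was checked against its markers: OLIG1 stood at 47.6 to 70.1 TPM (a level scaled for transcript length and library size) and PDGFRA at 3.67 to 4.98 TPM, whereas SOX10, a further OPC marker, stood at 0 to 0.0778 TPM. Of the neural progenitor markers, SOX2 stood at 345 to 427 TPM and PAX6 at most at 0.179 TPM, and neuronal and mesenchymal markers were present too. In such bulk RNA, fewer cells of a type and less RNA per cell cannot be told apart.

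DNA is copied once per cell cycle. In G1, the origin recognition complex with CDC6 and CDT1 loads the ring-shaped MCM helicase onto origins, and in S phase CDC45 and the GINS complex switch it on, after which primase and the DNA polymerases copy both strands with the help of the PCNA clamp. The transcripts of many of these proteins rise before S phase under the E2F transcription factors, and OPCs are known as the dividing cells of the oligodendrocyte lineage.

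E2F factors recognise short sequences near the start of their target genes. Promoter windows from RefSeq (GRCh38.p14, 250 bases before to 50 after the start) were matched to 45 of the 53 genes, as 61 windows. An E2F motif (TTTCCCGC, TTTCGCGC, TTTGCCGC or TTTGGCGC, on either strand) was found in 26 of the 61 windows (42.6%) and in 1164 of all 35116 promoter windows of the same length (3.31%). CCAAT was found in 33 of the 61 (54.1%, against 34.6% of all), and TTTGAA, the core of the cell cycle element CHR of later cell cycle genes, in 4 (6.56%, against 15.2%). The 4 genes whose levels differed most clearly across the coatings are shown, 5′ to 3′ on the strand of the gene, without any base of an exon of the same gene in GENCODE v29. Capitals mark the E2F motif, which reads GCGCCAAA where TTTGGCGC lies on the opposite strand.
HELLS: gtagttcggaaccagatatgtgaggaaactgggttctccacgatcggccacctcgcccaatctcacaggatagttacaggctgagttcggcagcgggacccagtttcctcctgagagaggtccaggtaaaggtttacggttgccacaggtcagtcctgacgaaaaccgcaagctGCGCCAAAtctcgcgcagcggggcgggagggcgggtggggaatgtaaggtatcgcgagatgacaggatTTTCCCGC
UNG: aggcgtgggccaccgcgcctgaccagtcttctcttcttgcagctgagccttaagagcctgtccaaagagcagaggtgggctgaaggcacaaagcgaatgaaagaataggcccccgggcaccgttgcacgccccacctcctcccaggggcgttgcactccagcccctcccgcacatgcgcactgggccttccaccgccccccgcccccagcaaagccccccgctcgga
POLA1: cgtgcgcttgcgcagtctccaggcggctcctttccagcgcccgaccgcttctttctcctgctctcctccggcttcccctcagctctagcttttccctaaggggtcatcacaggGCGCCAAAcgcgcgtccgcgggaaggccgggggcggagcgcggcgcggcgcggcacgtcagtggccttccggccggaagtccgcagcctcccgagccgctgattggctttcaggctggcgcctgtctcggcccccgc
E2F2: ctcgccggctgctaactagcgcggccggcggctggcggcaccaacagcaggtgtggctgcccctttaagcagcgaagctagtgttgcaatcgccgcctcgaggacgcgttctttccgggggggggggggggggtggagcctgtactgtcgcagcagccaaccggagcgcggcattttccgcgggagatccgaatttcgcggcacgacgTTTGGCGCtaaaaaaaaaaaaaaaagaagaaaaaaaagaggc

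The HELLS stretch (chr10:94545538-94545787, plus strand) precedes the RefSeq start nearest to that of HELLS-202, its most abundant transcript, but lies inside the gene as GENCODE annotates it, since another transcript starts upstream. It holds a motif 76 bases before the start of transcription and another 8 bases before it. The POLA1 stretch (chrX:24693668-24693917, plus strand) holds 1 motif 137 bases before the start, and that of E2F2 (chr1:23531234-23531483, minus strand) 1 motif 42 bases before it. The UNG stretch (chr12:109097347-109097573, plus strand) precedes the start of UNG-201, the transcript with 81.5% of the gene's TPM, and holds no such motif, whereas the window of a second UNG start holds TTTGCCGC 63 bases before it. Of the genes that passed a test between coatings in the results that follow, 7 had a window and 7 of these held the motif. Of the others, 38 had a window and 18 held it. A match is a run of letters and was not tested as a binding site.

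All 53 genes were expressed on every coating, and their levels spanned a wide range. PCNA, the sliding clamp, had the highest mean level (497 TPM), followed by TYMS, which makes thymidylate (382 TPM). The lowest were the transcription factors E2F2 (12.1 TPM) and E2F8 (10.4 TPM). Among the MCM2 to MCM7 subunits of the helicase, the mean level fell from MCM7 (263 TPM) over MCM4 (158 TPM), MCM3 (147 TPM), MCM2 (121 TPM) and MCM6 (96.4 TPM) to MCM5 (92.1 TPM). The libraries of MCM4 and MCM3 overlapped in TPM, as did those of MCM6 and MCM5, and the other neighbours in this order did not. Among the subunits of the clamp loader, RFC4 (83.2 TPM) stood above RFC2, RFC1, RFC5 and RFC3, which overlapped at mean levels of 64.4 to 58.7 TPM. In the GINS complex, GINS2 (49.4 TPM) and GINS1 (43.7 TPM) overlapped in TPM, and both stood above GINS4 (34.2 TPM), which stood above GINS3 (24.6 TPM). These levels sum all transcripts of a gene, also those that retain an intron and do not code. MCM7-210, of this type, held 26.8% of the TPM of MCM7, and GINS4-207 held 14% of that of GINS4. The order may differ for coding transcripts alone, which was not tested.

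**Figure D1:**
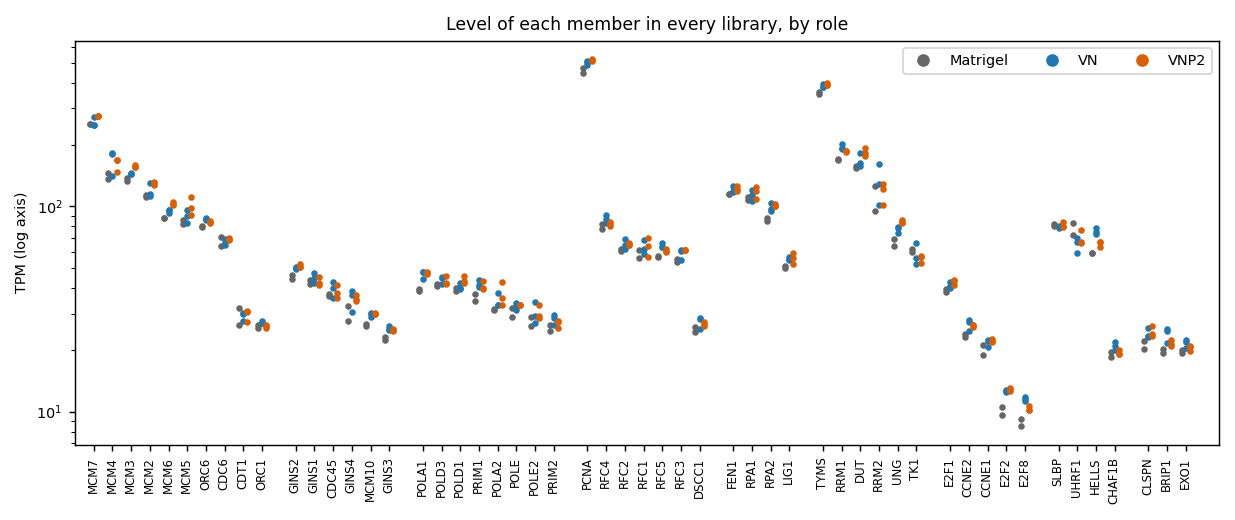
Level of each of the 53 genes in TPM (vertical log axis), with 1 point for each library coloured by coating and genes grouped by role. PCNA and TYMS stand highest, and E2F2 and E2F8 lowest, at 12.1 and 10.4 TPM on average.

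The 3 coatings differed little in these genes. Differences were tested in normalized counts (estimated counts scaled for library size and transcript length) with edgeR's quasi-likelihood test, and a call required an adjusted p (Benjamini-Hochberg) under 0.05 over all 18201 genes tested, among which were all 53. On VN against Matrigel, 5 of the 53 (9.43%) were called, against 15.2% of all genes tested: 4 were higher (5.81% of all genes were) and 1 lower (9.41% of all). On VNP2 against Matrigel, 6 of 53 (11.3%) were called, against 16.6% of all, with 6 higher (7.45% of all) and 0 lower (9.13% of all). Between VNP2 and VN, 3 of 53 (5.66%) were called, against 5.18% of all, with 2 higher on VNP2 (3.07% of all) and 1 lower (2.1% of all). Across the 3 coatings 7 of 53 were called (13.2%, against 19.3% of all). Of the 8778 genes with a mean count at least that of the lowest member (714), 21.4%, 21.1% and 6.46% were called in the 3 pairs.

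The median log2 fold change of the 53 genes was 0.04 on VN and 0.07 on VNP2 against Matrigel, beside 0.01 and 0.00 for all genes tested. The sign was positive for 42 and 40 of the 53, and for 9368 and 9216 of all 18201 genes tested. Against Matrigel, the extreme changes were 23.7% (E2F8 on VN) and -20.1% (UHRF1 on VN). The transcripts counted for UHRF1 held only 59.6% of its level in the normalized counts of the authors. On those counts limma gave a log2 difference of -0.03 on VN. For all 53 genes and each of the 3 pairs, the 95% interval of the difference lay within 1.5-fold in both directions. The lowest and highest bounds over the 53 genes were -30.3% and 44.9%, both on VN against Matrigel. On the TPM scale, the summed level of the 53 genes was 3942 to 3995 on Matrigel, 4259 to 4354 on VN and 4348 to 4387 on VNP2, so that the mean was 8.42% higher on VN and 10.2% higher on VNP2. The median log2 ratio of TPM over all genes tested was also positive, at 0.09 on VN and 0.07 on VNP2 against Matrigel.

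**Figure D2:**
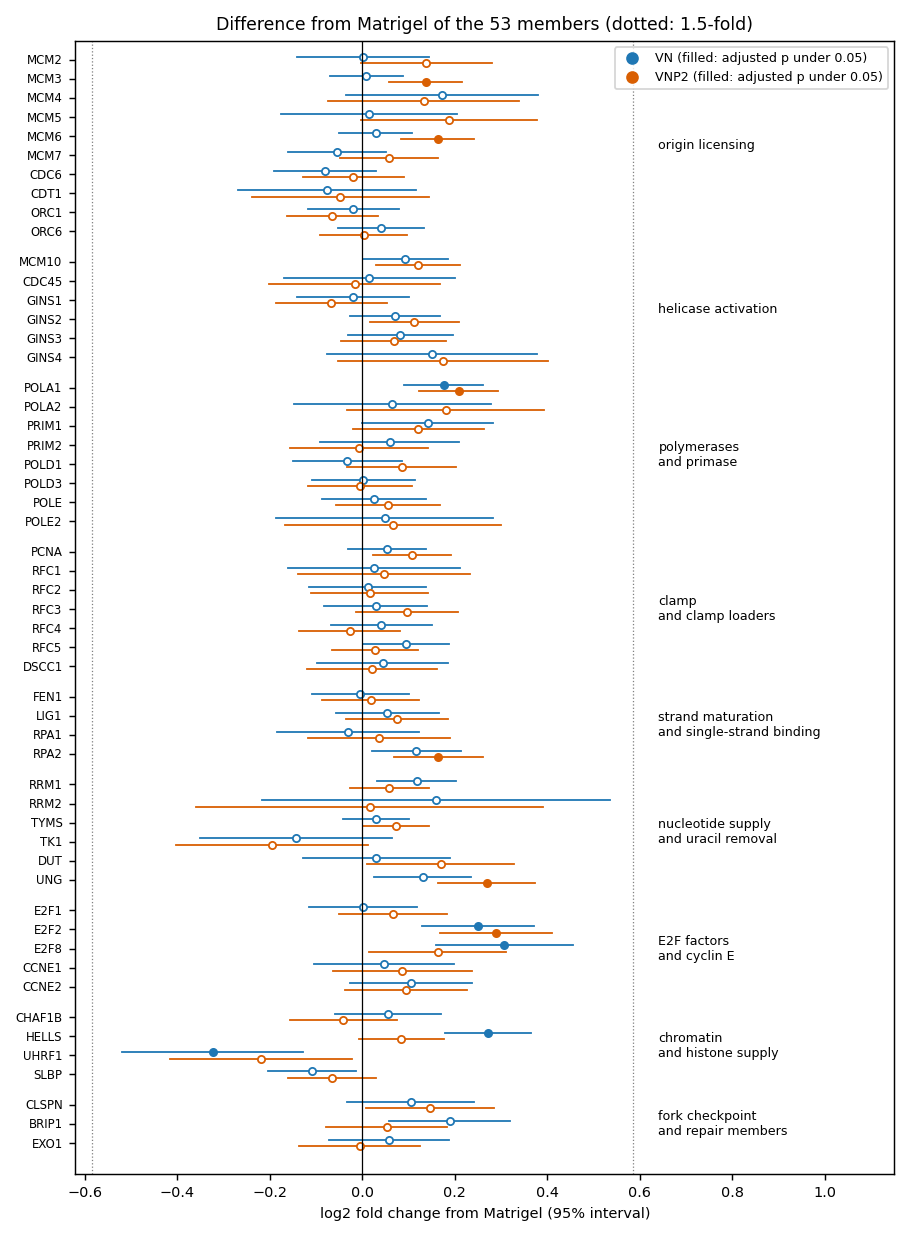
Difference of VN and of VNP2 from Matrigel for each of the 53 genes as a log2 fold change (horizontal axis) with its 95% interval, grouped by role. Filled points were called (5 on VN, 6 on VNP2), and every interval lies inside the dotted lines at 1.5-fold.

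Of 10 genes of origin licensing, MCM3 and MCM6, subunits of the helicase ring, were higher on VNP2 than on either other coating. On VN against Matrigel, edgeR and DESeq2 each called 0 of the 10, and 0 had an unadjusted p under 0.05 by either tool. By edgeR, 15.2% of all genes tested were called in that pair, and 5450 of 18201 had an unadjusted p under 0.05. MCM3 (chr6:52264009-52284881) had normalized counts of 10749 and 10359 on Matrigel, 10942, 10481 and 10426 on VN, then 11559, 11766 and 11488 on VNP2. The VNP2 libraries thus lay above all 5 others, while Matrigel and VN overlapped. The log2 fold change was 0.14 ± 0.04 (SE) on VNP2 against Matrigel (adjusted p = 0.0244) and 0.13 ± 0.03 against VN (adjusted p = 0.0453). MCM6 (chr2:135839626-135876426) had 7368 and 7326 on Matrigel, 7680, 7520 and 7287 on VN, then 8095, 8216 and 8365 on VNP2, again with VNP2 above all 5 others. Its log2 fold change was 0.16 ± 0.04 against Matrigel (adjusted p = 0.0106) and 0.13 ± 0.03 against VN (adjusted p = 0.0377), whereas VN and Matrigel differed by 0.03 ± 0.04.

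These MCM calls were fragile. Without either Matrigel library, MCM3 and MCM6 were no longer called on VNP2 against Matrigel (adjusted p from 0.0627 to 0.207). MCM3 also lost that call without any 1 of the VNP2 libraries (0.0566 to 0.0798). Against VN, both were called only with all 8 libraries or without VN replicate 1, and leaving out any other library gave adjusted p from 0.0649 to 0.152. Without the offset for transcript length, the adjusted p values of MCM3 and MCM6 against VN were 0.0544 and 0.0551, and that of MCM3 against Matrigel was 0.165.

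The other helicase subunits, MCM2, MCM4, MCM5 and MCM7, were not called. MCM5 had 5014 and 4797 on Matrigel, 5387, 4912 and 4569 on VN, then 6234, 5061 and 5478 on VNP2, which gave a log2 difference of 0.19 ± 0.09 on VNP2 against Matrigel (adjusted p = 0.176). MCM4 varied widely inside each group, with 11382 and 10552 on Matrigel, 10612, 13201 and 13269 on VN, then 12571, 12514 and 10989 on VNP2. Its log2 difference on VN from Matrigel was 0.17 ± 0.09 (adjusted p = 0.25) and reached 0.27 (adjusted p = 0.0148) without VN replicate 1, the lowest VN library. On VNP2 against Matrigel, all 6 MCM2 to MCM7 genes had positive log2 values (0.06 to 0.19), with no overlap between the libraries in 5 of them (48.1% of all genes tested did not overlap). The loaders CDC6, CDT1, ORC1 and ORC6 lay between -0.08 and 0.04 on the log2 scale on both VN and VNP2 against Matrigel.

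The 6 genes of helicase activation gave no call by edgeR or DESeq2 in any pair, and their log2 values against Matrigel ran from -0.07 to 0.17. At an unadjusted p under 0.05, edgeR had 1 of them on VN and 2 on VNP2 against Matrigel, and 0 between VNP2 and VN. Of all 18201 genes tested, 5450, 5276 and 3594 had such a p in these pairs, and 15.2%, 16.6% and 5.18% were called. GINS4, a subunit of the GINS complex, had 1734 and 2028 on Matrigel, 2318, 2171 and 1782 on VN, then 2212, 2099 and 2053 on VNP2. Its log2 difference on VNP2 was 0.17 ± 0.10 (95% interval -0.05 to 0.40), and the Matrigel and VN libraries overlapped.

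POLA1, the catalytic subunit of DNA polymerase alpha that extends the primers, was the only one of 8 polymerase and primase genes called, and it was higher on both VN and VNP2. POLA1 (chrX:24693919-24996986) had 5194 and 5032 on Matrigel, 5573, 5870 and 5884 on VN, then 5841, 5934 and 5950 on VNP2. Every VN and VNP2 library lay above both Matrigel libraries. The log2 fold change was 0.18 ± 0.04 on VN (adjusted p = 0.0122) and 0.21 ± 0.04 on VNP2 (adjusted p = 0.0039), and VNP2 and VN differed by 0.03 (95% interval -0.04 to 0.11). Without Matrigel replicate 3 neither call held (0.124 on VN and 0.057 on VNP2), nor did that on VN without Matrigel replicate 2 (0.052). POLA2, the accessory subunit of the same polymerase, had 2059 and 2025 on Matrigel, 2079, 2028 and 2303 on VN, then 2058, 2667 and 2228 on VNP2. It was not called (log2 difference 0.18 ± 0.10 on VNP2 against Matrigel, adjusted p = 0.251), and 1 VNP2 library was high.

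The clamp PCNA and its loaders gave no call by edgeR among 7 genes, and their log2 values against Matrigel lay between -0.03 and 0.11. On each of VN and VNP2 against Matrigel, 1 of the 7 had an unadjusted p under 0.05. Of all 18201 genes tested, 5450 and 5276 had such a p there, and 15.2% and 16.6% were called. PCNA was 0.05 ± 0.04 higher on VN and 0.11 ± 0.04 higher on VNP2 on the log2 scale (adjusted p = 0.381 and 0.0839). DESeq2, run as an alternative, called PCNA on VNP2.

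Among 4 genes of strand maturation and single-strand binding, RPA2, a subunit of the protein that coats single-stranded DNA at the fork, was higher on VNP2. RPA2 (chr1:27891524-27914746) had 2899 and 2985 on Matrigel, 3125, 3326 and 3119 on VN, then 3291, 3337 and 3263 on VNP2, with both Matrigel libraries below the 6 others. Its log2 fold change was 0.16 ± 0.04 on VNP2 (adjusted p = 0.0257) and 0.12 ± 0.04 on VN (adjusted p = 0.0981). The call was lost without either Matrigel library or any VNP2 library (adjusted p from 0.0559 to 0.178), and VNP2 and VN differed by 0.05 ± 0.04. RPA1, the large subunit, differed by 0.04 ± 0.07 on VNP2 from Matrigel. The flap nuclease FEN1 and the ligase LIG1 lay within 0.08 of Matrigel on the log2 scale on both other coatings.

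UNG, which removes uracil from DNA, had the clearest difference of VNP2 from Matrigel among the 53 genes. UNG (chr12:109097574-109110992) had 3052 and 2793 on Matrigel, 3121, 3275 and 3205 on VN, then 3509, 3586 and 3468 on VNP2. The 3 groups did not overlap: Matrigel was lowest, VN between and VNP2 highest. The log2 fold change on VNP2 was 0.27 ± 0.05 (adjusted p = 0.00306), a level 20.5% higher, and it was called without any 1 library. On VN it was 0.13 ± 0.05 (adjusted p = 0.092), and VNP2 exceeded VN by 0.14 ± 0.04 (adjusted p = 0.0969).

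The 5 genes of nucleotide supply were not called by edgeR. TK1, the thymidine kinase of S phase, had 1940 and 1858 on Matrigel, 1987, 1636 and 1533 on VN, then 1715, 1578 and 1683 on VNP2. Its log2 difference was -0.14 ± 0.09 on VN and -0.20 ± 0.09 on VNP2 (adjusted p = 0.344 and 0.198). Without VN replicate 1, the highest VN library, TK1 was called lower on both (log2 values of -0.26 and -0.20, adjusted p = 0.0131 and 0.0295). RRM2, the small subunit of ribonucleotide reductase, had the largest spread of the 53 genes (SE of 0.17 on VN against Matrigel). The matched transcripts held 57.4% of the RRM2 level in the normalized counts of the authors, and limma on those counts gave log2 differences of 0.06 on VN and -0.0045 on VNP2 (adjusted p = 0.345 and 0.957). RRM1, TYMS and DUT lay between 0.03 and 0.17 on the log2 scale.

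Among 5 genes of E2F factors and cyclin E, E2F2, an activator, was higher than on Matrigel on both VN and VNP2, and E2F8, a repressor, was higher on VN. E2F2 (chr1:23506430-23531220) had 1279 and 1161 on Matrigel, 1461, 1441 and 1449 on VN, then 1464, 1499 and 1509 on VNP2. Every VN and VNP2 library lay above both Matrigel libraries. Its log2 fold change was 0.25 ± 0.05 on VN (adjusted p = 0.0125) and 0.29 ± 0.05 on VNP2 (adjusted p = 0.00458). E2F8 (chr11:19224063-19241620) had 671 and 617 on Matrigel, 830, 771 and 790 on VN, then 710, 742 and 711 on VNP2, so that the 3 groups did not overlap. It rose by 0.31 ± 0.07 on VN (adjusted p = 0.0121), and was 0.16 ± 0.07 higher on VNP2 (adjusted p = 0.133).

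Without Matrigel replicate 3, the lower of the pair, E2F2 and E2F8 were no longer called: the adjusted p was 0.143 and 0.0703 for E2F2 on VN and VNP2, and 0.129 for E2F8 on VN. Without the length offset, E2F8 on VN was at 0.14 (adjusted p = 0.193). VNP2 and VN differed by 0.04 ± 0.05 in E2F2 and by -0.14 ± 0.06 in E2F8 (adjusted p = 0.707 and 0.213). E2F1, the best known activator, and the cyclins CCNE1 and CCNE2, which drive entry into S phase, were not called (log2 values of 0.00 to 0.11 against Matrigel).

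HELLS, a chromatin remodeller needed for DNA methylation, was the only gene of the 53 called higher on VN than on both other coatings. HELLS (chr10:94501434-94613905) had 3626 and 3576 on Matrigel, 4286, 4467 and 4290 on VN, then 3674, 3893 and 3889 on VNP2. The 3 groups did not overlap, and the lowest VN library exceeded the highest of the others by more than any group spanned. The log2 fold change was 0.27 ± 0.04 on VN against Matrigel (adjusted p = 0.00177), called without any 1 library, and -0.19 ± 0.04 on VNP2 against VN (adjusted p = 0.0158). The second was lost without VN replicate 2 or VNP2 replicate 1 (0.0645 and 0.0736). On VNP2 against Matrigel the difference was 0.08 ± 0.04 (adjusted p = 0.211).

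UHRF1, which reads hemimethylated DNA behind the fork, had 8035 and 7042 on Matrigel, 6555, 5408 and 6106 on VN, then 6122, 6202 and 7114 on VNP2. It was called lower on VN than on Matrigel, by -0.32 ± 0.09 on the log2 scale (adjusted p = 0.0337). The matched transcripts held 59.6% of the UHRF1 level in the normalized counts of the authors. Those counts were 11140 and 10795 on Matrigel, 10823, 10753 and 10616 on VN, then 11606, 11253 and 11259 on VNP2, and limma on them gave a log2 difference of -0.03 on VN (adjusted p = 0.575). The transcripts counted, the normalization and the test all differ there, and which of these moved the value was not tested. The call was also lost without Matrigel replicate 2, VN replicate 2 or VN replicate 3 (0.263, 0.0885 and 0.0737). SLBP, which binds histone mRNA, was -0.11 ± 0.04 on VN (adjusted p = 0.121), and CHAF1B, a chromatin assembly subunit, 0.06 ± 0.05 on VN.

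**Figure D3:**
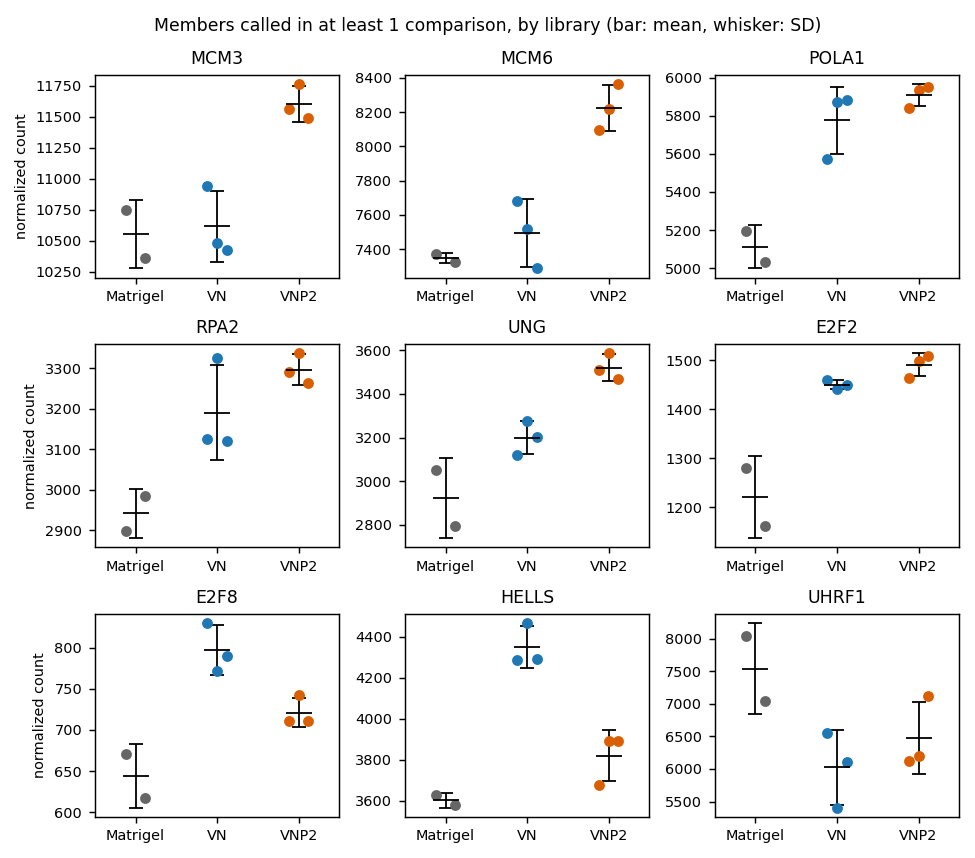
Normalized counts (vertical axes, which do not start at 0) of the 9 genes called in any comparison, with 1 point for each library, a bar for the mean and a whisker for the SD. MCM3 and MCM6 are high on VNP2 alone, HELLS is highest on VN, and POLA1 and E2F2 are high on both VN and VNP2.

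Of the 3 genes of fork checkpoint and repair, the helicase BRIP1 came closest to a call. It had 2280 and 2168 on Matrigel, 2349, 2600 and 2654 on VN, then 2240, 2303 and 2379 on VNP2, with VN above Matrigel and VNP2 overlapping both. The log2 difference on VN was 0.19 ± 0.06 (adjusted p = 0.0563), and DESeq2 called it (adjusted p = 0.032). Without VN replicate 1, the lowest VN library, it was 0.24 (adjusted p = 0.0068), and BRIP1 was then also called lower on VNP2 than on VN (-0.19, adjusted p = 0.0245). The checkpoint adaptor CLSPN (0.10 and 0.15 on VN and VNP2) and the nuclease EXO1 (0.06 and -0.01) were not called.

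The libraries of 2 coatings did not overlap in some of the genes. VN and Matrigel did not overlap in 15 of the 53 genes, against 44.4% of all genes tested. VNP2 and Matrigel did not overlap in 28 (48.1% of all), and VNP2 and VN in 13 (23.5% of all). The comparisons with Matrigel share its 2 libraries, of which replicate 3 was the lower in 37 of the 53 genes. The number of calls moved with single libraries. Without Matrigel replicate 3, 2, 1 and 1 of the 53 were called in VN against Matrigel, VNP2 against Matrigel and VNP2 against VN, where 6.31%, 8.58% and 4.10% of all genes were. Without Matrigel replicate 2 these counts were 3, 3 and 1, where 6.53%, 8.69% and 4.12% of all genes were called. Without VN replicate 1 the counts were 9, 11 and 7, where 21.6%, 20.2% and 10.9% of all genes were called. Without VN replicate 2 or VNP2 replicate 1, edgeR called 0 of the 53 between VNP2 and VN, where 5 had an unadjusted p under 0.05 in each case and 3.21% and 3% of all genes were called.

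Related genes outside the 53 were set beside them in 4 lists. Of 40 other replication genes, VN against Matrigel gave 4 higher and 2 lower, and VNP2 against Matrigel 3 of each, so that 15% of the list was called in either pair, beside 15.2% and 16.6% of all genes tested. Among them POLD4, a small subunit of DNA polymerase delta, had 185 and 206 on Matrigel, 152, 125 and 83.4 on VN, then 81.3, 97.9 and 142 on VNP2. It was lower on VNP2 by -0.87 ± 0.26 on the log2 scale (adjusted p = 0.0424), a call lost without either Matrigel library, VN replicate 2, VNP2 replicate 1 or VNP2 replicate 2 (0.0586 to 0.199) and without the length offset (0.0925). Of 28 further fork checkpoint and repair genes, 3 were higher on VN (10.7%, against 5.81% of all genes) and 2 on VNP2 (7.14%, against 7.45% of all). Without VN replicate 1, 8 genes of each list were called higher on VN. The share of all genes called on VN, in either direction, was then 21.6%, beside 15.2% with all libraries. Without Matrigel replicate 3, fewer genes of both lists and fewer of all genes were called on VN and on VNP2. The median log2 value of the replication list was 0.04 on VN and 0.01 on VNP2, and that of the repair list 0.09 and 0.06.

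G2/M genes act after replication. Of 54 such genes, 9 were called higher on VN than on Matrigel (5.81% of all genes were), 15 lower on VNP2 than on Matrigel (9.13% of all), and 36 lower on VNP2 than on VN (66.7%, against 2.1% of all genes called lower). The median log2 values of this list were 0.09, -0.10 and -0.20 in these 3 pairs, where the 53 replication genes had 0.04, 0.07 and 0.02. MKI67, the gene of the Ki-67 proliferation antigen, had 25438 and 23562 on Matrigel, 27377, 29160 and 28896 on VN, then 23102, 25356 and 24136 on VNP2. It was higher on VN than on Matrigel (0.22 ± 0.05, adjusted p = 0.0138) and lower on VNP2 than on VN (-0.23 ± 0.04, adjusted p = 0.011). The first was lost without Matrigel replicate 3 (0.149) and the second without VNP2 replicate 3 (0.05003). TOP2A, the topoisomerase that untangles chromosomes, showed the same order (0.18 ± 0.03 on VN against Matrigel, adjusted p = 0.00419, and -0.16 ± 0.03 on VNP2 against VN, 0.00872), and its first call was lost without Matrigel replicate 3 (0.0549). The G2/M counts also moved with single libraries. Without either Matrigel library, fewer were called higher on VN and fewer lower on VNP2. Without VN replicate 2 there were 3 higher on VN, where 10.9% of all genes were called either way. Without the length offset there were 5, where 16.7% of all were. Without VN replicate 2 or 3 or VNP2 replicate 1 or 3, 15 to 22 were lower on VNP2 than on VN. In those fits 3% to 3.21% of all genes were called either way. Whether the 2 sets of genes differ was not tested.

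**Figure D4:**
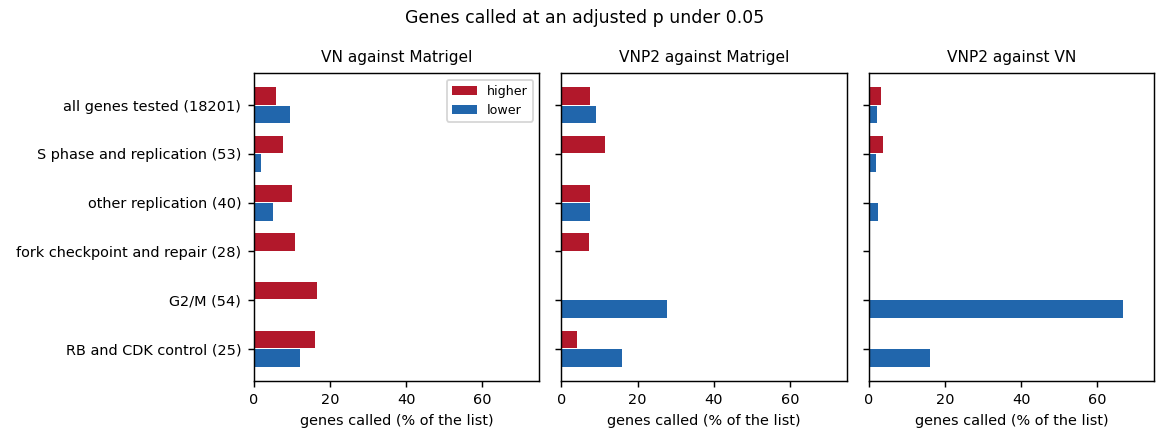
Share of each list called higher (red) or lower (blue), as a percentage of the genes tested, in the 3 pairs of coatings, with the number of genes in brackets. Of the G2/M genes 66.7% were called lower on VNP2 than on VN, and of the 53 replication genes 1 was.

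Among 25 genes of RB and CDK control, VN against Matrigel gave 4 higher and 3 lower (5.81% and 9.41% of all genes were). VNP2 against Matrigel gave 1 higher and 4 lower (7.45% and 9.13% of all). Between VNP2 and VN, 0 were called higher on VNP2 and 4 lower (3.07% and 2.1% of all). Leaving out single libraries moved these counts, and the share of all genes called moved too. On VN against Matrigel that share was 10.3% to 21.6% without 1 of the VN libraries. CDKN1A, whose product p21 inhibits cyclin-dependent kinases and binds PCNA, had the largest difference, with 5705 and 5676 on Matrigel, 3161, 3118 and 3142 on VN, then 3052, 3081 and 2861 on VNP2. Both Matrigel libraries lay far above the 6 others. Its log2 fold change was -0.86 ± 0.04 on VN and -0.92 ± 0.04 on VNP2 (adjusted p = 5.88e-07 and 2.17e-07), and none of the alternatives ended either call.

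The marker lists of other cell types also moved between the coatings, and their part in these differences was not tested. The summed TPM of 8 OPC markers ran from 223 to 226 on Matrigel, 290 to 304 on VN and 318 to 341 on VNP2, with SOX10 at or near 0 throughout. That of 7 neural progenitor markers ran from 3522 to 3596, 2997 to 3055 and 3276 to 3325. The sum of 8 mesenchymal markers (512 to 521, 579 to 616 and 501 to 536) was highest on VN, and Matrigel and VNP2 overlapped. That of 9 neuronal markers (825 to 858, 911 to 966 and 991 to 1020) differed too. So did those of 7 neural crest markers (46.2 to 46.5, 61.2 to 72.4 and 61.4 to 62.3), with FOXD3 and PAX3 near 0, and of 8 pluripotency markers (94.7 to 99.8, 85.9 to 89.2 and 77.7 to 81.4). The 4 astrocyte markers summed to 3.45 to 4.93 TPM, with GFAP and AQP4 near 0. A sum follows its most abundant markers. The median log2 ratio of TPM over all genes tested was itself 0.09 on VN and 0.07 on VNP2 against Matrigel. Single markers of some lists went both ways. On VN against Matrigel, 2 of 6 neural progenitor markers tested were called higher and 2 lower (5.81% and 9.41% of all genes). There, 6 pluripotency markers had positive log2 values and 2 negative (median 0.24), although their sum was lower. On VNP2 against Matrigel, 5 of 8 mesenchymal markers were called higher and 2 lower (7.45% and 9.13% of all). In that pair, 1 of 8 pluripotency markers was called higher and 4 lower. The calls of 2 lists went 1 way there: 6 of 7 OPC markers and 6 of 9 neuronal markers tested were called higher and 0 lower. Of these lists, 1 OPC marker and 2 neuronal markers had negative log2 values.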

How the data were processed

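The RNA-seq of OPCs on Matrigel, VN and VNP2 was used as deposited. Per the paper and the submitters' processing notes, the authors trimmed reads (Trim Galore) and ran Salmon on GENCODE v32 transcripts of GRCh38.p13, so the files hold estimated counts per transcript, not normalized. The deposited TPM values are Salmon's abundances, made by the authors in the same step. The authors also deposited a signal per gene, their counts divided by the normalization factors of DESeq2 1.27.12 after tximport (23350 genes). It served as 1 alternative. Salmon's version is not given in the sources used here, and the deposited files held no per-sample columns beyond the 8 libraries. 

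Transcripts were matched by identifier to GENCODE v29 (205225 of 226608, holding 98.8 to 98.9% of the estimated counts), summed per gene and rounded. For 49 of the 53 genes the mean lay within 5% of the authors' table, whereas for RRM2, UHRF1, PRIM1 and PRIM2 transcripts that v29 lacks took more. One edgeR 4.0.16 quasi-likelihood fit (R 4.3.3) of all 8 libraries used TMM, length offsets and filterByExpr (minimum count 10, minimum total 15). Tests were two-sided with Benjamini-Hochberg adjustment over 18201 genes. Intervals are at 95% and come from the SE. Tables were made with pandas 2.3.3 in Python 3.11.15, and the fit was tested on simulated data. Depth gives counting errors of a few percent or less for these genes. For the less abundant ones these errors are not small beside the spread between libraries, so both limit precision.

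The genes and lists were chosen with earlier results of these data known, so lists are described by counts and medians. Values in every library are given for each of the 53 genes called in any comparison, and for those with the largest absolute log2 fold change at a mean of at least 100 counts, up to 15 in all. From the other lists, genes called with a change of at least 1.5-fold were named, with MKI67 and TOP2A. Alternatives were DESeq2 1.42.0, RLE normalization, no length offset, no filter, a replicate block, limma 3.58.1 on log2 of the deposited normalized signal (pseudocount 1), and leaving out single libraries. Promoters printed are those of the called genes with the smallest adjusted p across the coatings, at the start nearest to the most abundant transcript.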

Additional observations from a re-analysis of the deposited data

Results flagged for a closer look

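The change from Matrigel differed between VNP2 and VN for 3 of the 53 genes by edgeR's quasi-likelihood test of VNP2 against VN. These were 5.66% of the 53, beside 5.18% of all genes tested. The VNP2 and VN libraries did not overlap in 13 of the 53 and in 23.5% of all genes tested. MCM3 had changed by 0.13 more on VNP2 than on VN on the log2 scale (adjusted p = 0.0453), with all 3 VNP2 libraries above all 3 VN libraries. MCM6 had changed by 0.13 more on VNP2 (0.134, adjusted p = 0.0377), again in 3 of 3 libraries. HELLS had changed less on VNP2 than on VN, by -0.19 on the log2 scale (adjusted p = 0.0158), with all 3 VNP2 libraries below all 3 VN libraries. Without VN replicate 2 or without VNP2 replicate 1, none of the 3 differences was called by edgeR. No group holds 4 libraries, so single libraries were not screened for outlying values.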

How the results depend on the processing

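The number of the 53 genes called stayed within 1.5 times the reported count in 39 of 56 recounts. Without the length offset, VNP2 against VN gave 1 call (HELLS) in place of 3. The share of all genes called was then 6.04%, in place of 5.18%. When each library was left out in turn, the highest counts came without VN replicate 1. They were 9 on VN and 11 on VNP2 against Matrigel, 7 between VNP2 and VN, and 15 across the 3 coatings. The shares of all genes called were then 21.6%, 20.2%, 10.9% and 27.5%. Between VNP2 and VN the lowest count, 0, came without VN replicate 2 or VNP2 replicate 1 (3.21% and 3% of all genes). Elsewhere the lowest came without Matrigel replicate 3, where fewer of all genes were called too. A lone Matrigel library is assumed to vary like the other groups, and the cause of these shifts was not tested. Of 630 recomputed log2 fold changes of named genes, 577 stayed on the same side of the threshold, 42 lost and 11 gained a call, and 0 called values changed sign. Correlations of deviations between libraries with the same replicate number ran from -0.0488 to 0.0171, and with different numbers from -0.062 to 0.062. Deviations from the mean of so few libraries cancel within a group. These values therefore cannot show whether the numbers pair the samples. With the replicate block, the counts were 7, 7, 3 and 8, with the 5, 6, 3 and 7 reported calls among them, and 18.7%, 17.3%, 6.41% and 21.9% of all genes were called. In single genes the block also called UNG on VN and TK1 on VNP2 (adjusted p = 0.0493 and 0.046), and POLD4 on VNP2 lost its call (0.0816). BRIP1 on VN was called by DESeq2, without the filter and with the block (0.032, 0.043 and 0.0175), and UHRF1 on VNP2 without the filter (0.0261). The medians over all genes stayed within 0.1 (log2) of 0 with each alternative. The alternatives for the 4 genes outside the 53 and for the related lists were chosen after seeing the data. All intervals of the 53 genes lay within 1.5-fold, so differences smaller than that are not excluded for the genes not called.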
